A study of Mus musculus with 12 samples.

Results

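The mitochondrial carrier family SLC25 was described in hearts of male, wild-type C57BL/6J mice, 8 weeks old at the start, that carried melanoma cells, ran on a treadmill, did both or did neither. Members were the rows of the gene count table whose symbol was Slc25a followed by a number, with a mean of at least 0.5 CPM (a gene's counts relative to its library's total, scaled with TMM, the trimmed mean of M values) over the 12 libraries. Of 45 such rows among 17397 genes, 38 met the rule, and all 38 were tested. The rule used abundance over all libraries and no difference between groups. The 4 groups held 3 libraries each. Tumour trained mice received B16F10 cells and exercise. Tumour mice received B16F10 cells and were not trained. Trained mice exercised without tumour cells, and control mice received saline and no exercise. B16F10 is a C57BL/6 mouse melanoma line that seeds organs from the blood, and 100000 cells were given through the tail vein from week 2 of the study. Training was treadmill running on 5 days a week for 4 weeks, with main bouts of 35 min at 12 m/min. The labels do not say whether the trained mice without tumours received saline, nor that each library is a separate mouse. P-values therefore measure the spread between these libraries.

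Carriers of this family sit in the inner mitochondrial membrane and pass metabolites between the cytosol and the matrix. They are encoded in the nucleus, and most are exchangers: one substrate leaves as another enters. In heart muscle they supply oxidative phosphorylation with ADP and phosphate, bring in acylcarnitines for fatty acid oxidation, and run the malate-aspartate shuttle that moves reducing equivalents from cytosolic NADH into the matrix.

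The tissue label says heart, whereas the extraction protocol names livers. The liver marker Alb was at most 3.93 CPM in any library, and the summed level of 15 cardiomyocyte markers was between 118210 and 130690 CPM in 10 libraries. It was 24021 CPM in tumour 1 and 66553 CPM in tumour 2. These libraries also held 9402 and 4775 CPM of 7 melanocyte markers, against 47.4 to 81.7 CPM in the other 10. Their 8 proliferation markers summed to 974 and 360 CPM, against 4.54 to 14.6 CPM in the other 10. Trained 2 also stood apart. It differed from the other trained libraries by a chi-square of 29.0 and 31.2 per gene, against 4.2 between those 2. For comparisons with the tumour group, fold changes without tumour 1 and 2 are given as well, and carriers whose call changed without trained 2 are named. In bulk tissue, fewer cells of a type and less RNA per cell cannot be told apart.

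Library totals were 8843909 to 13344847 counts. Of these, the 38 genes together took up 1.025% to 1.07% in the tumour trained libraries, 1.00% to 1.07% in the trained libraries and 0.996% to 1.02% in the control libraries. In tumour 1, 2 and 3 the shares were 0.526% (95% Wilson interval 0.522% to 0.530%), 0.6997% (0.695% to 0.704%) and 1.061% (1.055% to 1.07%), with intervals that cover counting error only. The share was thus low in the 2 libraries with melanoma transcripts and alike in the other 10. The family was dominated by its energy carriers. Per kilobase of exon, Slc25a4, the ADP/ATP carrier of heart and skeletal muscle also known as Ant1, had a control mean of 2349 CPM. Slc25a3, the phosphate carrier, had 1419 CPM per kilobase. Next came Slc25a11, the oxoglutarate-malate carrier of the malate-aspartate shuttle, at 485, and Slc25a5, the more widely expressed ADP/ATP carrier Ant2, at 296 CPM per kilobase. Slc25a20, the carnitine-acylcarnitine carrier, had 150 CPM per kilobase. The lowest members per kilobase were Slc25a27, Slc25a30 and Slc25a14, at 1.43, 1.22 and 1.04 CPM in control hearts. These 3 form the uncoupling-protein-like group. Slc25a4 and Slc25a3 alone gave 68.3% to 72.5% of all member counts in the 10 libraries with few melanocyte transcripts, and 51.4% and 63.2% in tumour 1 and tumour 2.

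Of the 7 rows below the minimum, Slc25a43 was the closest, with a mean of 0.462 CPM, and Slc25a14 was the nearest above it, with a mean of 2.36 CPM. Slc25a43 reached 3.17 CPM in tumour 1 from 53 counts. The others, Slc25a2, Slc25a18, Slc25a21, Slc25a31, Slc25a41 and Slc25a53, had at most 7 counts in any library. A count of 3 corresponds to 0.225 to 0.339 CPM.

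**Figure D1:**
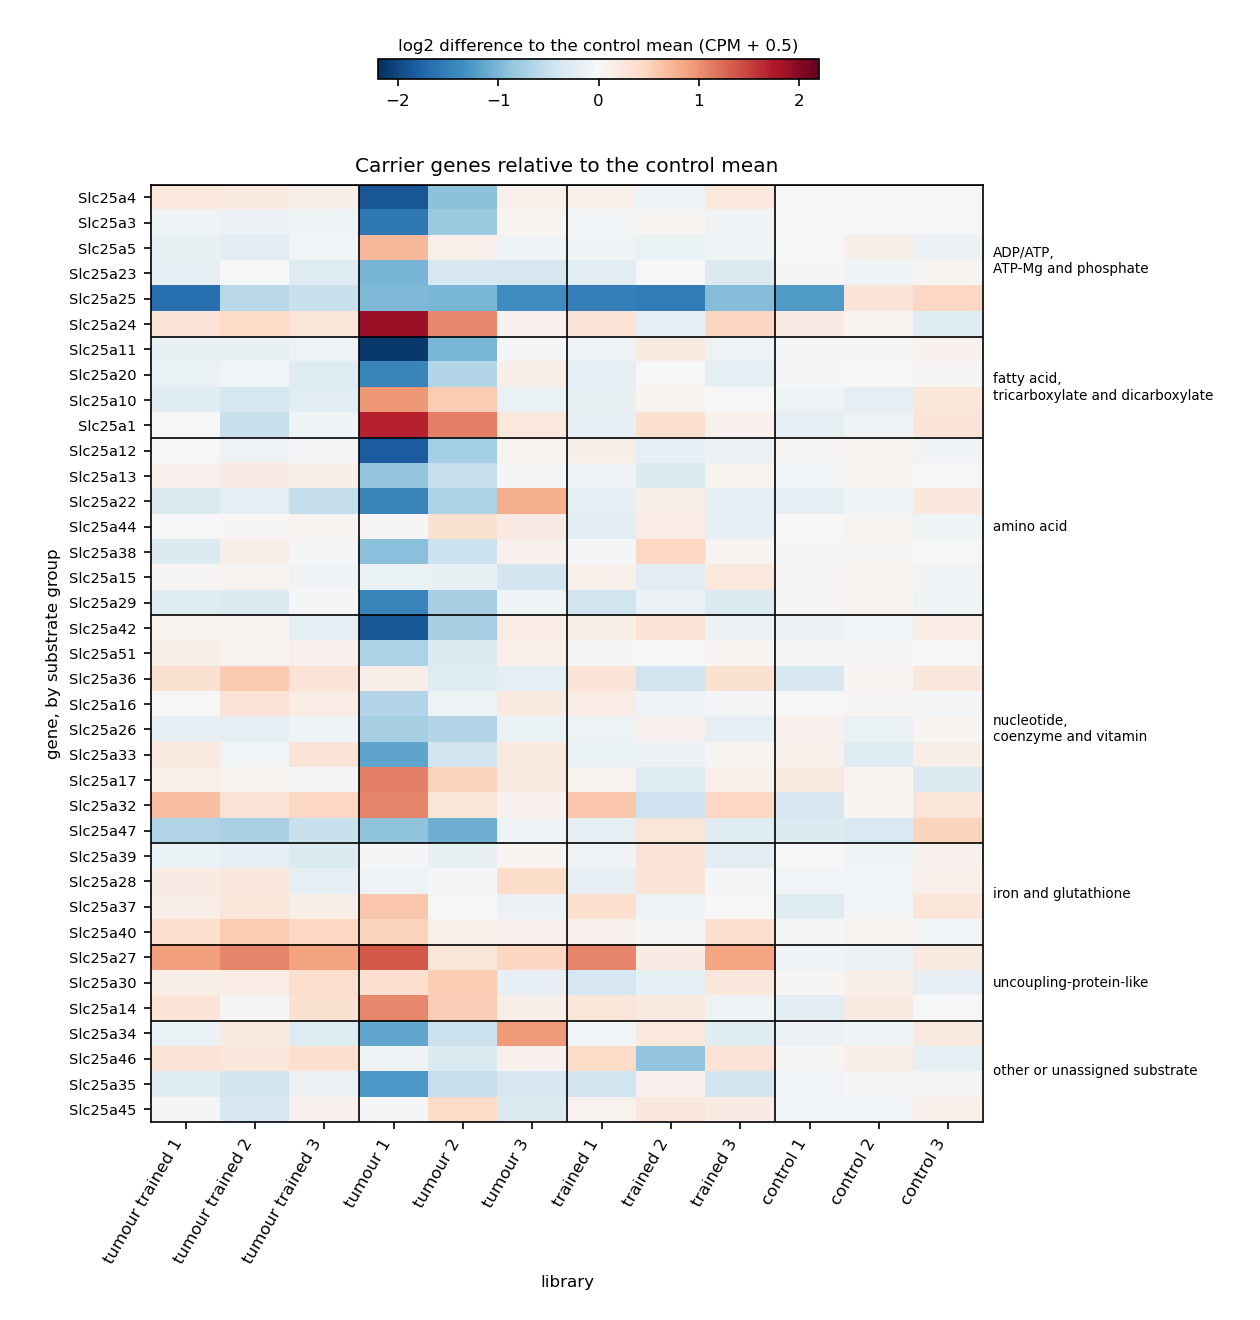
Each cell is the log2 difference of a gene's CPM (plus 0.5) in 1 library to the control mean, for 37 of the 38 carriers in 7 substrate groups, with the tumour trained, tumour, trained and control libraries as columns. Tumour 1 and tumour 2 differ most from the control mean, with Slc25a24 and Slc25a1 high and Slc25a4 and Slc25a11 low.

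Hearts of tumour mice were first set against control hearts, which addresses what the melanoma does to carrier expression. No carrier passed edgeR's quasi-likelihood test at an adjusted p below 0.05, where 6.79% of the 12778 genes tested did. At an unadjusted p below 0.05 there were 12 carriers, where 34.4% of genes were. DESeq2 called 6, among them Slc25a1, Slc25a23 and Slc25a24, where it called 17.8% of genes. The median log2 fold change of the 38 was -0.15, against 0.11 for all genes tested. By group, the median was -0.60 for the 6 ADP/ATP, ATP-Mg and phosphate carriers, -0.39 for the 7 amino acid carriers, -0.31 for the 10 nucleotide, coenzyme and vitamin carriers and 0.77 for the 3 uncoupling-protein-like carriers. It was 0.16 for the 4 iron and glutathione carriers, 0.01 for the 4 carriers of fatty acids, tricarboxylates and dicarboxylates and -0.03 for the 4 of other or unassigned substrate. When tumour 1 and 2 were left out, the median was 0.09 for the 38, against 0.02 for all genes. The group medians were then -0.02 for the ADP/ATP, ATP-Mg and phosphate carriers, 0.08 for the amino acid carriers, 0.12 for the nucleotide, coenzyme and vitamin carriers and 0.18 for the uncoupling-protein-like carriers. They were 0.08 for the iron and glutathione carriers, 0.06 for the fatty acid, tricarboxylate and dicarboxylate carriers and -0.12 for those of other or unassigned substrate. The low medians of the ADP/ATP, amino acid and nucleotide groups were thus no longer there.

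These medians averaged libraries that differed widely. Slc25a4 had 1229, 2426 and 4880.2 CPM in tumour 1, 2 and 3, against 4509, 4575 and 4481 CPM in control libraries. Slc25a11 had 189.7, 411 and 814 CPM in tumour libraries, against 803, 802 and 883 CPM in control libraries. Both genes were lowest in tumour 1, lower than every control library in tumour 2 and near or above the control level in tumour 3. Slc25a12, an aspartate-glutamate carrier, followed the same order with 90.9, 193 and 339.7 CPM in tumour libraries, against 331, 333 and 308 CPM in control libraries. Slc25a42, which carries coenzyme A, had 24.0, 53.7 and 99.8 CPM in tumour libraries, against 81.8, 85.9 and 100.3 CPM in control libraries. This descending order, tumour 1 below tumour 2 below all controls, held for 18 of 38 carriers, against 27.7% of all genes tested. It held for 5 of 7 amino acid carriers, 6 of 10 nucleotide, coenzyme and vitamin carriers, 3 of 6 ADP/ATP, ATP-Mg and phosphate carriers and none of the iron and glutathione or uncoupling-protein-like carriers. The cardiomyocyte marker sum moved in the same order, and its part in these values was not tested beyond the scaling that follows.

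The opposite order, tumour 1 above tumour 2 above all controls, held for 7 of 38 carriers, against 33.1% of all genes tested. They were Slc25a1, Slc25a10, Slc25a14, Slc25a17, Slc25a24, Slc25a27 and Slc25a40. Slc25a1, the citrate carrier that exports citrate for cytosolic lipid synthesis, had 29.4, 19.2 and 10.3 CPM in tumour libraries, against 7.47, 7.98 and 10.6 CPM in control libraries. Slc25a24, an ATP-Mg/phosphate carrier regulated by calcium, had 35.4, 19.6 and 9.78 CPM in tumour libraries, against 10.4, 9.54 and 7.57 CPM in control libraries. The dicarboxylate carrier Slc25a10 had 36.9, 27.6 and 16.8 CPM in tumour libraries, against 17.3, 16.1 and 22.7 CPM in control libraries. In each of these 3 genes, tumour 3 lay within the control range. Slc25a1 had the lowest p of the carriers, with a log2 fold change of 1.18 ± 0.34 (SE) and an adjusted p of 0.0553. Slc25a24 followed with 1.24 ± 0.38 and an adjusted p of 0.0630. Leaving out tumour 1 and 2, Slc25a1 was at 0.26 ± 0.28 (adjusted p = 0.816) and Slc25a24 at 0.10 ± 0.27 (adjusted p = 0.943), so both differences rested on these libraries. Slc25a23, another ATP-Mg/phosphate carrier, went the other way, with 30.5, 48.7 and 47.8 CPM in tumour libraries, against 63.3, 58.5 and 65.0 CPM in control libraries. Its groups did not overlap, as for 9 of 38 carriers in all, 3 higher and 6 lower, where 14.2% and 11.8% of genes tested were so. Its log2 fold change was -0.56 ± 0.18 with an adjusted p of 0.0731, and -0.37 ± 0.16 (adjusted p = 0.372) without tumour 1 and 2. The summed level of the 7 melanocyte markers moved with Slc25a1, Slc25a10 and Slc25a24 across the tumour libraries. Their part in the result was not tested.

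**Figure D2:**
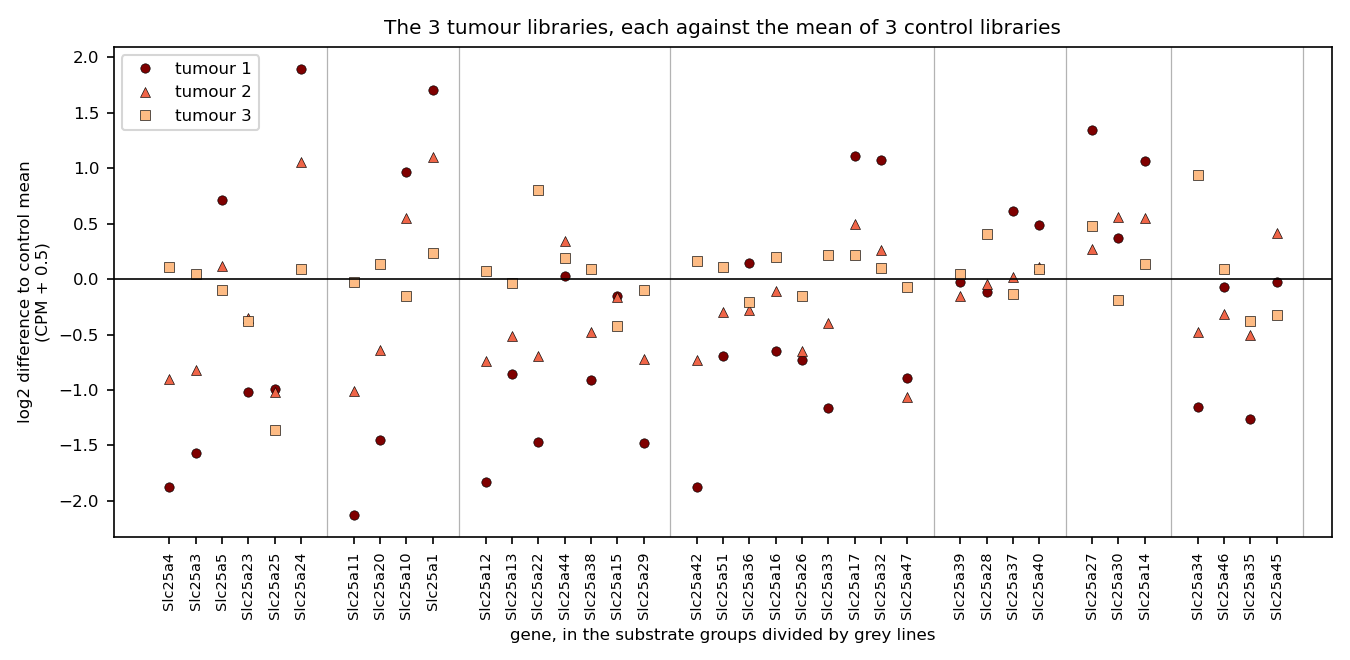
The log2 difference to the control mean (CPM plus 0.5) is plotted for 37 of the 38 carriers in tumour 1 (circles), tumour 2 (triangles) and tumour 3 (squares), with substrate groups divided by grey lines. Tumour 1 and 2 spread widely around 0. Tumour 3 mostly lies closer to 0, with Slc25a22 and Slc25a34 furthest above it and Slc25a25 furthest below it.

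When each library was scaled to its cardiomyocyte markers, the median of all genes in tumour against control moved to 1.55 on the log2 scale. Then 20 carriers were called in tumour against control, where 71.2% of genes were, and 14 in tumour trained against tumour, where 58.7% were. On that scale Slc25a4 differed by 0.25 (adjusted p = 0.134) and Slc25a11 by 0.07 (adjusted p = 0.702). Relative to the median of all genes these were -1.30 and -1.48. Slc25a1 differed by 2.95 and Slc25a24 by 3.08, which is 1.40 and 1.53 above the median, both with an adjusted p of 0.0204.

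Tumour 3 was the tumour library with heart-like marker sums and 81.0 CPM of melanocyte markers. There, 15 carriers were above all controls and 9 below, against 31.9% and 29.0% of all genes tested. A pair of carriers stood out. Slc25a22, a glutamate carrier, had 21.2, 36.6 and 104 CPM in tumour libraries, against 51.3, 56.3 and 71.0 CPM in control libraries. Slc25a34, an abundant carrier of heart and skeletal muscle with no agreed substrate, had 109.5, 175 and 468 CPM in tumour libraries, against 222, 228 and 281 CPM in control libraries. Both genes were lower than every control library in tumour 1 and 2 and higher than every control library in tumour 3, so the group means hardly differed. They were chosen after these values were seen. With all 12 libraries their log2 fold changes were -0.15 ± 0.43 (adjusted p = 0.813) and 0.04 ± 0.41 (adjusted p = 0.949). Without tumour 1 and 2 they were 0.82 ± 0.20 (adjusted p = 0.0784) and 0.95 ± 0.21 (adjusted p = 0.0573), and no carrier was called where 1.40% of genes were. Without trained 2 as well, 0.82 ± 0.15 (adjusted p = 0.00964) for Slc25a22 and 0.95 ± 0.17 (adjusted p = 0.00648) for Slc25a34 were the 2 carriers called, where 5.80% of genes were. The same 2 were called with GC offsets, which take out each library's trend of counts with the GC content of transcripts, at 0.86 ± 0.14 and 1.00 ± 0.16, where 6.63% of genes were (adjusted p = 0.00445 and 0.00365). A single tumour library carries both values, and it was assumed to vary like the other groups.

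The 250 bases before the start of Slc25a34 (chr4:141623835-141624084, minus strand, GRCm38.p6) and of the outermost start of Slc25a22 (chr7:141437875-141438124, minus strand) are shown because these genes were high in the same tumour library. The sequences are RefSeq's, printed 5′ to 3′ on the gene's strand. Capitals mark the reverse complement of the nuclear receptor half-site AGGTCA, which 15.8% of 27025 gene promoters of this length hold on either strand. The Slc25a22 window held none of the 6 motifs searched on both strands. These were that half-site, the glucocorticoid receptor half-site TGTTCT, the E-box CACGTG, the cyclic AMP response element TGACGTCA, the ERR or PPAR type element TGACCTTTG and the NRF1 motif. The ERR or PPAR type element contains the reverse complement of the nuclear receptor half-site.
Slc25a34: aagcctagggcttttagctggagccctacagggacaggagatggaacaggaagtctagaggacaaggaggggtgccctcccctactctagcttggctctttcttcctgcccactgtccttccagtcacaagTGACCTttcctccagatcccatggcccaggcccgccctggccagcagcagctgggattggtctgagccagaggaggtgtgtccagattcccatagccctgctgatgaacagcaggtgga
Slc25a22: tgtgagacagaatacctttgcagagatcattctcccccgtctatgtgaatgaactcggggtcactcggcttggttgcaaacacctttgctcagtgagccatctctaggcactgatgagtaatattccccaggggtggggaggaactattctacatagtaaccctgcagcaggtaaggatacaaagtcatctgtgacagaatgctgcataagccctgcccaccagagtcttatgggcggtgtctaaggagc
A match is a description of these letters. Among the 29 carriers with such a promoter sequence, 4 held AGGTCA.

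Genes outside the numbered family were read from 5 lists of related genes. Of 5 carrier family genes under other symbols, 4 were tested. Ucp3, the uncoupling protein of skeletal muscle and heart, had 30.6, 90.2 and 204 CPM in tumour libraries, against 41.3, 61.7 and 79.2 CPM in control libraries. Without tumour 1 and 2 its log2 fold change was 1.76 ± 0.29 (adjusted p = 0.0144), and with all 12 libraries 0.83 ± 0.50 (adjusted p = 0.243). Cpt1a, an isoform of the enzyme that makes the acylcarnitines which Slc25a20 carries, had 83.6, 88.4 and 122 CPM in tumour libraries, against 64.3, 79.1 and 63.6 CPM in control libraries. Its log2 fold change was 0.83 ± 0.15 (adjusted p = 0.0201) without tumour 1 and 2, and 0.50 ± 0.16 (adjusted p = 0.0724) with all 12 libraries. With 12 libraries no gene of the 5 lists was called in tumour against control. The median log2 fold change was -0.04 for the 10 genes of the TIM22 pathway, which inserts carriers into the inner membrane, and -0.36 for 13 other transport genes. It was -0.49 for 22 genes of mitochondrial content and -0.55 for 10 shuttle enzymes, against 0.11 for all genes. The medians without tumour 1 and 2 were 0.04 for the TIM22 pathway, 0.06 for the other transport genes, 0.05 for mitochondrial content and 0.07 for the shuttle enzymes, against 0.02 for all genes, so the lower values were no longer there.

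Tumour trained hearts were next compared with tumour hearts, which asks what training does in mice with melanoma. Slc25a1 was the 1 carrier called, and it was lower, where 9.05% of genes tested were called, 7.25% lower and 1.79% higher. It had 8.66, 6.04 and 8.10 CPM in tumour trained libraries, against 29.4, 19.2 and 10.3 CPM in tumour libraries. The groups did not overlap, and tumour 3 lay close to the tumour trained libraries. The log2 fold change was -1.37 ± 0.34 with an adjusted p of 0.0366 by edgeR. Without tumour 1 and 2 it was -0.46 ± 0.28. The call was lost when any 1 library other than tumour 3 or trained 2 was left out. In the fits where it was lost, 0.0225% to 0.864% of genes were called, against 9.05% with all libraries. At an unadjusted p below 0.05 there were 7 carriers, where 31.9% of genes were. DESeq2 called 3, namely Slc25a1, Slc25a10 and Slc25a13, where it called 18.6% of genes. Slc25a10 had 15.4, 14.2 and 15.7 CPM in tumour trained libraries, all below the tumour libraries, with a log2 fold change of -0.85 ± 0.25 (adjusted p = 0.0553), and -0.17 ± 0.21 (adjusted p = 0.727) without tumour 1 and 2. Slc25a13, the other aspartate-glutamate carrier, which is best known from liver, had 191, 201 and 197 CPM in tumour trained libraries, against 98.3, 125 and 174 CPM in tumour libraries. Its log2 fold change was 0.57 ± 0.20 (adjusted p = 0.0804), and 0.16 ± 0.14 (adjusted p = 0.617) without tumour 1 and 2.

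The start of Slc25a1 (chr16:17928220-17928469, minus strand, GRCm38.p6, RefSeq) is shown since it was the 1 carrier called with all libraries. Capitals mark the E-box CACGTG. In at least 1 promoter of this length, 6.86% of all genes and 6 of the 29 carriers (20.7%) hold it.
Slc25a1: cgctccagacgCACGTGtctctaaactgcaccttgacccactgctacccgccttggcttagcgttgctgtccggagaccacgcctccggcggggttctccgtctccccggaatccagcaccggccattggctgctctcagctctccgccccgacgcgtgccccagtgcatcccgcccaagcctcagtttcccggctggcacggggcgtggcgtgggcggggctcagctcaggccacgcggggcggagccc

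Without tumour 1 and 2, Slc25a22 was the 1 carrier called, lower in tumour trained hearts, where 0.716% of genes were called. It had 47.4, 50.9 and 41.2 CPM in tumour trained libraries, against 104 CPM in tumour 3, a log2 fold change of -1.18 ± 0.20 (adjusted p = 0.0197). Slc25a34 had 219.6, 280.5 and 199 CPM in tumour trained libraries, against 468 CPM in tumour 3, with -1.02 ± 0.21 (adjusted p = 0.0608). Without trained 2 as well, Slc25a34 was also called (-1.02 ± 0.17, adjusted p = 0.00396), as was Slc25a20 (-0.32 ± 0.09, adjusted p = 0.0484), where 11.8% of genes were. Slc25a20, the carnitine-acylcarnitine carrier, had 242, 255 and 218 CPM in tumour trained libraries, against 97.4, 172 and 293 CPM in tumour libraries, so tumour 3 alone was higher than the tumour trained libraries. With GC offsets in that fit, Slc25a22 and Slc25a34 were again lower, where 7.83% of genes were called. Their log2 fold changes were then -1.01 ± 0.14 and -0.85 ± 0.16 (adjusted p = 0.00227 and 0.00952). Slc25a20 was not called there, and Slc25a3 was (-0.35 ± 0.07, adjusted p = 0.00995). Ucp2, a widely expressed uncoupling protein, was called lower in tumour trained against tumour hearts with all libraries (-1.02 ± 0.23, adjusted p = 0.0357) and without tumour 1 and 2 (-1.33 ± 0.22, adjusted p = 0.0197). It had 41.6, 57.5 and 58.3 CPM in tumour trained libraries, against 75.8, 113 and 130.4 CPM in tumour libraries. Cpt1a was lower without tumour 1 and 2 (-0.87 ± 0.15, adjusted p = 0.0197) and missed the threshold with all libraries (-0.54 ± 0.16, adjusted p = 0.0583).

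The interaction of tumour and training asks whether the tumour difference was the same in trained and untrained mice. No carrier was called with 12 libraries, where 0.0235% of genes were, with 5 carriers at an unadjusted p below 0.05, as 14.4% of genes were, and none by DESeq2, which called 2.11% of genes. The lowest p-values were those of Slc25a1 (-1.49 ± 0.48, adjusted p = 0.288), Slc25a25 (1.63 ± 0.59, adjusted p = 0.2998) and Slc25a13 (0.67 ± 0.28, adjusted p = 0.314). They were, without tumour 1 and 2, -0.58 ± 0.35 (adjusted p = 0.705), 1.87 ± 0.76 (adjusted p = 0.501) and 0.27 ± 0.18 (adjusted p = 0.743). Without tumour 1, tumour 2 and trained 2, Slc25a22 was called (-0.97 ± 0.20, adjusted p = 0.0494), where 1.03% of genes were, and also with GC offsets (-0.98 ± 0.19, adjusted p = 0.0298), where 1.25% were. Slc25a34 was at -0.86 ± 0.22 (adjusted p = 0.103). Without tumour 1 and 2 alone no carrier was called, where 0.246% of genes were.

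**Figure D3:**
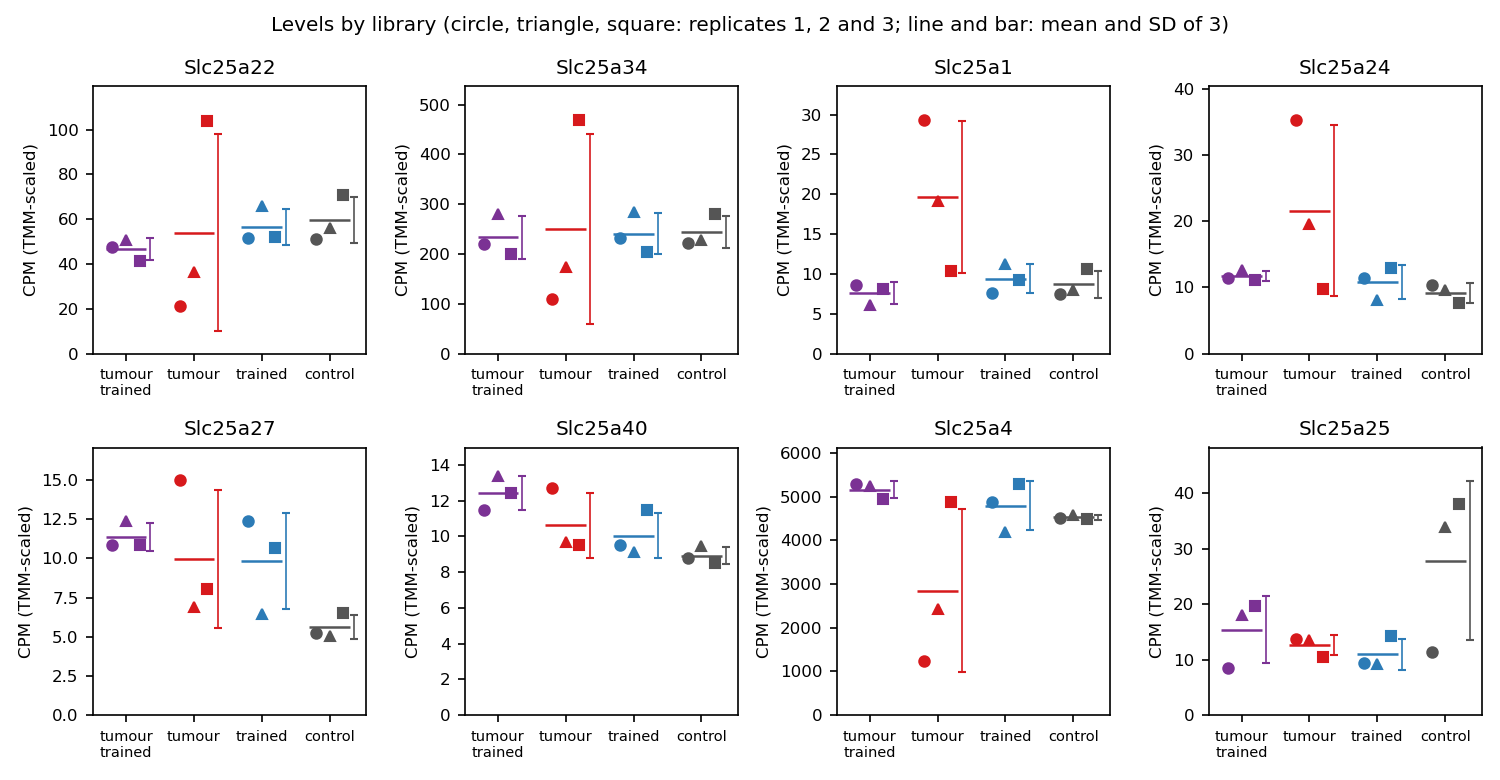
TMM-scaled CPM in each library of the tumour trained, tumour, trained and control groups is plotted for 8 carriers, with symbols for replicates 1, 2 and 3, a line at the mean and a bar of 1 SD. Slc25a22 and Slc25a34 are highest in tumour 3, and Slc25a1 and Slc25a24 in tumour 1. Slc25a27 is above the control libraries in all tumour trained and all tumour libraries.

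Trained hearts without tumours were compared with control hearts for the difference with exercise in mice without tumour cells. Whether these groups also differed in saline injection is not given in the labels. No carrier was called, where 0.00799% of genes tested were, with 2 carriers at an unadjusted p below 0.05, as 7.69% of genes were, and none by DESeq2, which called 0.336% of genes. The median log2 fold change was 0.00, against 0.01 for all genes. Slc25a27, also known as uncoupling protein 4 and best known from neurons, had the lowest p. It had 12.4, 6.42 and 10.6 CPM in trained libraries, against 5.27, 5.06 and 6.52 CPM in control libraries. Trained 2 lay inside the control range and the other trained libraries far above it. The log2 fold change was 0.79 ± 0.23 (adjusted p = 0.465). Without trained 2, it was 1.02 ± 0.16 (adjusted p = 0.00371), and Slc25a46 was also called, at 0.36 ± 0.10 (adjusted p = 0.0419), where 11.9% of genes were. With GC offsets as well, Slc25a46 was at 0.02 ± 0.10 (adjusted p = 0.931) and not called. Slc25a46 lies in the outer membrane, unlike most of the family, and had 104, 42.4 and 97.6 CPM in trained libraries, against 79.8, 86.7 and 67.3 CPM in control libraries. Slc25a29, a carrier of basic amino acids, was the 1 carrier without overlap, where 4.01% of genes were higher and 5.44% lower without overlap. It had 7.42, 9.28 and 8.19 CPM in trained libraries, against 10.3, 10.7 and 9.57 CPM in control libraries, with -0.29 ± 0.15 (adjusted p = 0.673).

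Slc25a25, a calcium-binding ATP-Mg/phosphate carrier, varied within groups. It had 9.42, 9.19 and 14.2 CPM in trained libraries, against 11.4, 33.9 and 38.1 CPM in control libraries. Control 1 was at the level of the trained libraries, and the other controls were higher than every library of the other groups. The log2 fold change was -1.35 ± 0.42 (adjusted p = 0.5), and -1.72 (adjusted p = 0.0316) without control 1. Its levels were 8.45, 18.02 and 19.6 CPM in tumour trained libraries and 13.7, 13.5 and 10.5 CPM in tumour libraries. Its estimated counts were not whole numbers in 41.7% of libraries, as for Slc25a37 in 91.7% and Slc25a51 in 8.33%. How reads were divided there is not stated. One of its 3 starts (chr2:32424067-32424316, minus strand, GRCm38.p6, RefSeq) is shown because it holds a full cyclic AMP response element, TGACGTCA, in capitals. Its other starts held none of the motifs searched. Of all genes with a promoter sequence, 1.77% hold this element in at least 1 promoter of this length. Slc25a36 was the other carrier with this element.
Slc25a25: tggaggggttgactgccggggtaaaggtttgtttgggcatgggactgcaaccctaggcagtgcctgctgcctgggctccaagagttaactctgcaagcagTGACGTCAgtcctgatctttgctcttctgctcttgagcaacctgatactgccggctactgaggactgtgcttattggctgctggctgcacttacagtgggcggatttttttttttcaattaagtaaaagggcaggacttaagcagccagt

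Tumour trained hearts were also compared with trained hearts, which shows the tumour difference under training. No carrier was called, and neither was any gene (0% of 12511). At an unadjusted p below 0.05 there were 3 carriers, where 7.07% of genes were, with none by DESeq2, which called 0.184% of genes. Without trained 2 there was again none, where 0.0396% of genes were called. Slc25a13 had 191, 201 and 197 CPM in tumour trained libraries, against 169, 142 and 187 CPM in trained libraries (0.24 ± 0.10, adjusted p = 0.618). Slc25a47, a carrier best known from liver, had 1.90, 1.83 and 2.21 CPM in tumour trained libraries, against 2.83, 4.08 and 2.66 CPM in trained libraries (-0.70 ± 0.32, adjusted p = 0.618). Slc25a40, a mitochondrial glutathione carrier, had 11.51, 13.4 and 12.4 CPM in tumour trained libraries, against 9.54, 9.11 and 11.49 CPM in trained libraries (0.31 ± 0.14, adjusted p = 0.618). None of these 3 carriers overlapped between the groups, as for 9 of 38 carriers, 3 higher and 6 lower, where 7.91% and 8.13% of genes were so. Across the 38 carriers, this fold change correlated with GC content at Spearman's rho -0.665, and at -0.178 without trained 2. With GC offsets and all 9 libraries, Slc25a13 was at 0.19, Slc25a47 at -0.51 and Slc25a40 at 0.04. No carrier was called there, where 0% of genes were.

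Tumour trained hearts were last compared with control hearts, and this comparison shares its control libraries with trained against control. No carrier was called in the 9 libraries without the tumour group, where 0.0400% of genes were, with 4 carriers at an unadjusted p below 0.05, as 21.5% of genes were. DESeq2 called 1, Slc25a27, where it called 3.64% of genes. Slc25a27 had 10.9, 12.4 and 10.8 CPM in tumour trained libraries, against 5.27, 5.06 and 6.52 CPM in control libraries. Every tumour trained library was above every control library. The untrained tumour libraries, at 15.0, 6.89 and 8.03 CPM, were also above every control library. For tumour trained against control, the log2 fold change was 1.01 ± 0.23 (adjusted p = 0.129). Slc25a40 had 11.5, 13.4 and 12.4 CPM in tumour trained libraries, against 8.81, 9.44 and 8.52 CPM in control libraries (0.47 ± 0.14, adjusted p = 0.141). Slc25a22 had 47.4, 50.9 and 41.2 CPM in tumour trained libraries, against 51.3, 56.3 and 71.0 CPM in control libraries (-0.36 ± 0.15, adjusted p = 0.205). In all, 9 carriers were higher and 8 lower without overlap, where 22.1% and 17.6% of genes were.

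Trained 2 is in neither group of that comparison but enters its estimate of the spread. Without it, 7 carriers were called, where 22.4% of genes were. Slc25a27 was higher (1.01 ± 0.15, adjusted p = 0.00135), and so were Slc25a4, Slc25a32, Slc25a36, Slc25a40 and Slc25a46 by 0.18 to 0.51, while Slc25a22 was lower (-0.36 ± 0.12, adjusted p = 0.0405). Slc25a32, which brings in FAD or folate, had 16.3, 12.7 and 14.0 CPM in tumour trained libraries, against 7.66, 10.3 and 12.2 CPM in control libraries. Slc25a36, which carries pyrimidine nucleotides, had 61.9, 73.6 and 60.7 CPM in tumour trained libraries, against 38.4, 50.6 and 58.0 CPM in control libraries. Slc25a46 had 97.3, 92.2 and 101.2 CPM in tumour trained libraries, against 79.8, 86.7 and 67.3 CPM in control libraries. In these 3 genes every tumour trained library was above every control library. Slc25a32, Slc25a36, Slc25a40 and Slc25a46 are the carriers of lowest transcript GC content, at 39.7% to 41.2%. Across the 38 carriers, which share these libraries, the fold change of tumour trained against control correlated with GC content at Spearman's rho -0.707, and the deviation of trained 2 from the other trained libraries at 0.766. With GC offsets and without trained 2, 3 carriers were called, where 8.73% of genes were. Slc25a27 was higher (1.07 ± 0.15, adjusted p = 0.00455), Slc25a4 was higher (0.30 ± 0.05, adjusted p = 0.00862) and Slc25a3 was lower (-0.32 ± 0.05, adjusted p = 0.00478). The values of Slc25a40, Slc25a36 and Slc25a46 were then 0.04, 0.05 and -0.06, Slc25a32 was at 0.17 and Slc25a22 at -0.15. In trained against control with the same settings, the carriers called were again Slc25a27 (1.09 ± 0.16, adjusted p = 0.0127), Slc25a4 (0.27 ± 0.06, adjusted p = 0.0305) and Slc25a3 (-0.25 ± 0.05, adjusted p = 0.0300), where 3.87% of genes were. With GC offsets and all 9 libraries no carrier was called in either comparison, where 0.00806% of genes were in trained against control and 0% in tumour trained against control, and Slc25a27 was at 1.08 ± 0.24 (adjusted p = 0.0934) in tumour trained against control.

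**Figure D4:**
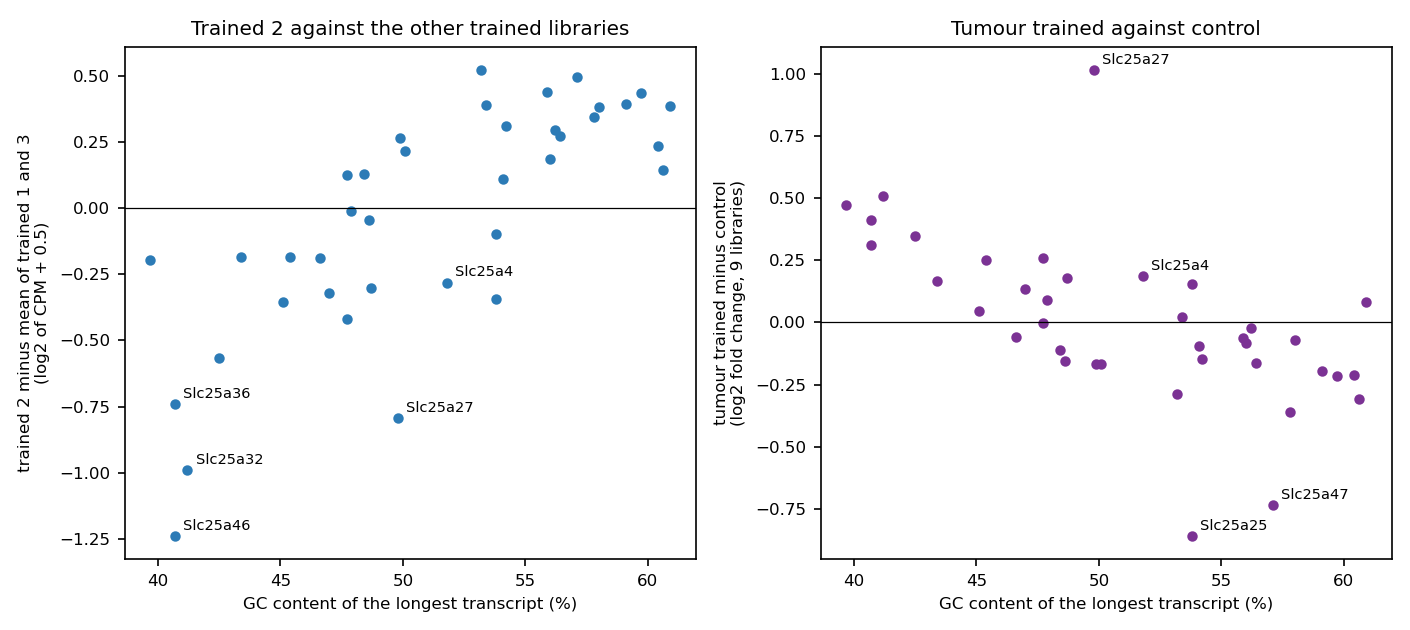
Each point is 1 of 38 carriers, with the GC content of its longest transcript in percent on the x axis. The left panel shows trained 2 minus the mean of trained 1 and 3 (log2 of CPM plus 0.5) and rises with GC content (rho 0.766). The right panel shows the log2 fold change of tumour trained against control and falls with it (rho -0.707), with Slc25a27 above the trend.

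Slc25a4 had 5290.4, 5244 and 4942 CPM in tumour trained libraries and 4872, 4186 and 5298 CPM in trained libraries, against 4509, 4575 and 4481 CPM in control libraries. Slc25a3 had 2575, 2538 and 2586 CPM in tumour trained libraries and 2659, 2881 and 2614 CPM in trained libraries, against 2729, 2785 and 2771 CPM in control libraries. The tumour trained libraries were all above control for Slc25a4 and all below it for Slc25a3. With all 9 libraries the differences were 0.19 ± 0.09 and -0.11 ± 0.07, neither of them called (adjusted p = 0.240 and 0.351). With GC offsets and all 9 libraries they were 0.31 ± 0.11 and -0.32 ± 0.12, again not called (adjusted p = 0.198 and 0.208). Without trained 2 and without offsets, Slc25a4 was called at 0.18 ± 0.05 (adjusted p = 0.0268) and Slc25a3 was not, at -0.12 ± 0.05 (adjusted p = 0.0893). In tumour trained against control, the call of Slc25a4 thus came with leaving out trained 2, and that of Slc25a3 needed both changes. In trained against control without trained 2, Slc25a4 was at 0.16 ± 0.06 (adjusted p = 0.0912), so its call there needed the offsets too. Without trained 2, the offsets moved Slc25a3 (48.4% GC) in tumour trained against control from -0.12 to -0.32. They moved Slc25a5 (48.6%) from -0.16 to -0.14, and Slc25a37 (48.7%) stayed at 0.18. The cause was not tested.

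Ratios within a library do not depend on its scaling, but they are not corrected for its trend with GC content. The per-kilobase ratio of Slc25a4 to Slc25a5, the muscle and the general ADP/ATP carrier, was 10.4, 10.8 and 9.04 in tumour trained libraries, against 7.97, 7.35 and 8.57 in control libraries. It was 1.31, 3.93 and 9.19 in tumour libraries and 9.18, 8.09 and 9.88 in trained libraries. The lowest values are those of the 2 libraries with melanoma transcripts. The ratio of Slc25a39 to Slc25a40, both glutathione carriers, was 24.3, 20.4 and 20.02 in tumour trained libraries, against 35.2, 30.5 and 38.7 in control libraries. The ratio of Slc25a12 to Slc25a13 was 0.831, 0.733 and 0.784 in tumour trained libraries, against 0.953, 0.876 and 0.855 in control libraries. Each of these 3 ratios had no overlap between tumour trained and control libraries, with a two-sided exact permutation p of 0.1, the smallest that 3 against 3 allows, and 0.5 after adjustment over 20 comparisons. Transcript GC content was 59.7% for Slc25a39 and 39.7% for Slc25a40, and with GC offsets and without trained 2 tumour trained against control was 0.01 for Slc25a39 and 0.04 for Slc25a40, which leaves that pair's difference near 0. In the same fit Slc25a4 was at 0.30 and Slc25a5 at -0.14, with transcripts of 51.8% and 48.6% GC. Slc25a12 was at -0.12 and Slc25a13 at 0.09, with 46.6% and 47.0% GC. The ratio of Slc25a28 to Slc25a37, the mitoferrins that bring in iron, averaged 3.67 ± 0.49 in tumour trained and 4.00 ± 0.53 in control libraries (SD, n = 3 each), and the groups overlapped (exact permutation p = 0.5). The longest identical stretch of Slc25a4 and Slc25a5 transcripts was 20 bases.

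**Figure D5:**
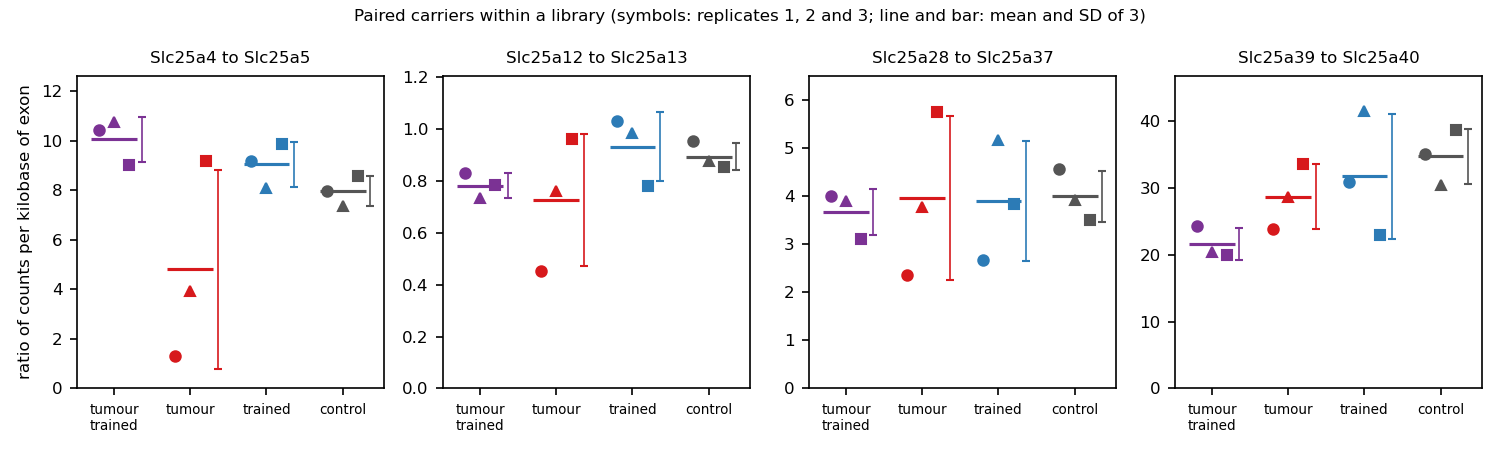
The ratio of counts per kilobase of exon is plotted for 4 carrier pairs in each library of the tumour trained, tumour, trained and control groups, with a line at the mean and a bar of 1 SD. Slc25a4 to Slc25a5 is higher, and Slc25a12 to Slc25a13 and Slc25a39 to Slc25a40 lower, in all tumour trained libraries than in any control library.

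Among the carriers of nucleotides, coenzymes and vitamins, Slc25a51 carries NAD into the matrix. It had 85.7, 81.7 and 84.4 CPM in tumour trained libraries, 48.4, 63.9 and 84.8 CPM in tumour libraries and 77.4, 78.5 and 80.8 CPM in trained libraries, against 77.4, 80.1 and 78.4 CPM in control libraries. It was between 77.4 and 85.7 CPM in the other 10 libraries and lower in tumour 1 and 2, and tumour trained against control gave 0.09 ± 0.08 (adjusted p = 0.507). Slc25a26, the S-adenosylmethionine carrier, had 18.5, 19.7 and 27.88 CPM in tumour libraries, against 33.1, 27.94 and 32.2 CPM in control libraries (-0.50 ± 0.17, adjusted p = 0.0823), and without tumour 1 and 2 the difference was -0.15 ± 0.17 (adjusted p = 0.833). Slc25a17, a carrier of the peroxisome rather than the mitochondrion, had 37.3, 24.2 and 19.8 CPM in tumour libraries, against 19.6, 17.8 and 13.6 CPM in control libraries (0.67 ± 0.24, adjusted p = 0.0825), and without tumour 1 and 2 the difference was 0.23 ± 0.22 (adjusted p = 0.762). All tumour libraries were below every control library for Slc25a26 and above every control library for Slc25a17.

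Of the amino acid carriers, Slc25a44, which carries branched-chain amino acids, had no tumour library below its control range. It had 29.8, 37.0 and 33.3 CPM in tumour libraries, against 29.4, 30.7 and 27.4 CPM in control libraries (0.19 ± 0.15, adjusted p = 0.346). Slc25a38, the glycine carrier that serves haem synthesis, had 13.8, 18.9 and 28.2 CPM in tumour libraries, against 25.7, 26.9 and 26.6 CPM in control libraries (-0.38 ± 0.24, adjusted p = 0.256). Slc25a15, the ornithine carrier, had 13.8, 13.6 and 11.4 CPM in tumour libraries, against 15.7, 15.8 and 14.6 CPM in control libraries (-0.25 ± 0.17, adjusted p = 0.293). For Slc25a15 every tumour library was below every control library, with tumour 3 the lowest, and the group difference missed the threshold. The differences without tumour 1 and 2 were 0.20 ± 0.17 (adjusted p = 0.738) for Slc25a44, 0.10 ± 0.21 (adjusted p = 0.927) for Slc25a38 and -0.43 ± 0.20 (adjusted p = 0.419) for Slc25a15.

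In the iron and glutathione group, Slc25a39 was the most abundant, with 169, 165 and 150.5 CPM in tumour trained libraries, 184, 168 and 193 CPM in tumour libraries and 178, 229 and 159 CPM in trained libraries, against 187, 174 and 199 CPM in control libraries. No member of this group was called in any comparison with all libraries under TMM scaling. In tumour 1, 2 and 3, Slc25a37 had 33.7, 22.1 and 19.9 CPM, against 18.2 to 26.6 CPM in control libraries. Slc25a40 had 12.7, 9.67 and 9.51 CPM in these libraries, against 8.52 to 9.44 CPM in control libraries. Slc25a28, the mitoferrin of most tissues, had 29.3, 30.8 and 42.2 CPM, where the control libraries had 30.3 to 34.4 CPM. For Slc25a28, tumour 3 was thus the tumour library above all controls. Of the lists of related genes, none had a called member in the 3 comparisons of the 9 libraries. The medians there lay between -0.19 and 0.04 on the log2 scale.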

How the data were processed

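RNA sequencing of 12 heart libraries was used. The authors deposited 1 table of estimated counts per gene, not normalized, made with featureCounts after HISAT2 2.2.1 (per the submitters' processing notes, which name both GRCm39 and mm10). The table's build, annotation and strand setting are not given in the sources read, and overlapping genes cannot be told apart. Of all values, 7.41% were not whole, and they were rounded.

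The test was edgeR's (version 4.0.16, R 4.3.3; quasi-likelihood, TMM scaling, default filter by group, Benjamini-Hochberg over all genes, threshold 0.05, SE as the size of the log2 fold change over the square root of F). Comparisons with the untrained tumour group used 12 libraries (12778 genes, 8 residual degrees of freedom), and the others the 9 without it (12511 genes, 6). Alternatives were DESeq2 1.42.0, other scalings, filters and fits, left-out libraries and, chosen after seeing the data, GC offsets and the fits without trained 2 and both melanoma-bearing libraries. Lengths and GC content came from GENCODE M21. The GC contents given are those of the longest protein-coding transcript. The GC offsets used each gene's longest transcript of any type, which can be another one. Promoters are RefSeq's for GRCm38.p6. The scripts were tested on simulated data.

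The members and lists were chosen with earlier results of these data known. Values by library are given for the following members, in most cases for some of the groups and not for all. Members called with all libraries or in the fits without tumour 1 and 2 or trained 2 are included. So are the most abundant member of each substrate group and the 3 of lowest p in each comparison. Slc25a22, Slc25a34 and others were added after their values were seen. The values of 1 carrier are not reported here.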

Additional observations from a re-analysis of the deposited data

How the results depend on the processing

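Of 24 fold changes of single carriers, 15 kept their direction under every alternative, and 410 of 486 values kept direction and side of the threshold. Of the 24, that of Slc25a1 in tumour trained against tumour was the 1 called with all libraries. It kept its direction but was not called in 15 of 22 alternatives. For the others, keeping the side of the threshold means staying not called. Leaving out 1 library gave 0 to 24 carriers called in tumour against control, 0 to 22 in tumour trained against tumour, 0 to 15 in the interaction, 0 to 2 in trained against control and 0 to 7 in tumour trained against control. It gave 0 in tumour trained against trained, where 0% to 0.0396% of genes were called. The highest counts of the first 3 were those without tumour 3, which left the 2 libraries with melanoma transcripts, and those of the last 2 were without trained 2. Without tumour 3, 53.0%, 49.8% and 30.1% of all genes were called in those 3, and without trained 2, 11.9% and 22.4%. Fits that called 0 carriers called few genes. The shares were 0.03% to 1.55% in tumour against control, 0.0225% to 0.864% in tumour trained against tumour and 0.015% to 0.0467% in the interaction. They were 0% to 0.0079% in trained against control and 0% to 0.753% in tumour trained against control. Without control 1, Slc25a25 alone was called in trained against control (1 carrier, where 0.713% of genes were). DESeq2 called 6, 3 and 1 carriers in tumour against control, tumour trained against tumour and tumour trained against control. Fits of only the groups compared called 0 in tumour trained against tumour and 4 in tumour trained against control, where 0.0159% and 20.4% of genes were. Scaling to cardiomyocyte markers called 20 in tumour against control and 14 in tumour trained against tumour, where 71.2% and 58.7% of genes were. Without tumour 1, tumour 2 and trained 2, 2, 3 and 1 carriers were called in tumour against control, tumour trained against tumour and the interaction, with or without GC offsets. Without trained 2 and with GC offsets, 3 were called in trained against control and 3 in tumour trained against control.

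Directions turned in 4 carriers. In tumour against control, Slc25a22 was 0.82 without tumour 1 and 2 (0.82 without trained 2 as well, 0.86 with GC offsets too) and 0.69 when scaled to cardiomyocyte markers. Slc25a23 was 0.70 there on that scale, and Slc25a13 was -0.59 in tumour trained against tumour and -0.50 in the interaction. Leaving out 1 library moved Slc25a22 between -1.09 and 0.24 in tumour against control, -0.60 and 0.71 in tumour trained against tumour, and -0.52 and 0.80 in the interaction. For Slc25a34 these were -0.82 and 0.40, -0.47 and 0.74, and -0.45 and 0.77. In each, one end was the value without tumour 3 and the other that without tumour 1. The causes were not tested.

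Correlations of deviations between same-numbered libraries of different groups lay from -0.299 to 0.265. Differently numbered libraries were not compared, so this check cannot decide whether replicate numbers pair the libraries. With the replicate number as a block, 0 carriers were called in tumour trained against tumour (Slc25a1 adjusted p = 0.0761), where 0.141% of genes were. Slc25a34 was then -0.074 in tumour against control, 0.037 in tumour trained against tumour and 0.026 in the interaction, where Slc25a22 was 0.021. Groups of 3 libraries limit what can be detected, as do low counts in Slc25a14 and Slc25a47 (at least 16 and 17 in every library). A further limit is that only 1 tumour library had melanocyte markers within the range of the other groups.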
